A study of Arabidopsis thaliana with 36 samples.

Results

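Genes of abscisic acid metabolism and signalling were followed through cold acclimation and deacclimation of Arabidopsis thaliana rosettes. They were chosen by gene identifier, not by a threshold on their values, but with earlier results of these data known. They are 10 of the 34262 genes in each count table, and all 10 passed the filter on low counts. NCED3 (AT3G14440) stands for synthesis, CYP707A1 (AT4G19230) and CYP707A3 (AT5G45340) for breakdown, and ABI1 (AT4G26080), ABI2 (AT5G57050), HAB1 (AT1G72770), HAI1 (AT5G59220) and HAI2 (AT1G07430) for the phosphatases of the signalling core. ABF3 (AT4G34000) and HB12 (AT3G61890) are transcription factors. The 36 libraries cover the wild type Col0 and the lines mbf1c and jub1, with 3 biological replicates in each of 12 groups. Soil-grown plants entered the experiment at 28 days of age and whole rosettes were taken before cold (NonA, 20 °C by day and 200 µE of light) or after 3 days at 4 °C and 90 µE (ACC). Further rosettes were taken after 2 days (Deacc2) or 4 days (Deacc4) back at 20 °C and 200 µE. Temperature, light and plant age changed together, so their effects cannot be told apart. The labels name the mutant lines only, without the allele. In RNA from whole rosettes, a change in the share of a cell type and a change in RNA per cell cannot be told apart.

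Abscisic acid is the plant hormone of drought, salt and cold stress and of seed dormancy. It is made from carotenoids, with cleavage by 9-cis-epoxycarotenoid dioxygenases such as NCED3 as the rate-limiting step, and it is inactivated by the 8′-hydroxylases of the CYP707A family. When the hormone binds its PYR/PYL receptors, they inhibit the clade A protein phosphatases of type 2C, which releases SnRK2 kinases to phosphorylate transcription factors of the ABF group. ABFs bind abscisic acid response elements with the core ACGTG, and many clade A phosphatase genes are themselves induced by the hormone, which gives negative feedback.

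The stretches of 250 bases before the annotated starts of 4 genes are printed because the results below contrast CYP707A1 with CYP707A3 and HAI2 with HAI1. They were read from the TAIR10.1 reference with its RefSeq annotation, 5′ to 3′ on the gene's strand, and capitals mark ACGTG on either strand. The CYP707A1 stretch is chr4:10521009-10521258 on the plus strand. The others lie on the minus strand, CYP707A3 at chr5:18371022-18371271, HAI1 at chr5:23896940-23897189 and HAI2 at chr1:2282829-2283078.
CYP707A1: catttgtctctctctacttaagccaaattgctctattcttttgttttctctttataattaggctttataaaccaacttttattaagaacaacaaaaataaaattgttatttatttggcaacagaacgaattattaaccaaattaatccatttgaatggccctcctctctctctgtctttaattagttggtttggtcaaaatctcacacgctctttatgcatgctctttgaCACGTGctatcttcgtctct
CYP707A3: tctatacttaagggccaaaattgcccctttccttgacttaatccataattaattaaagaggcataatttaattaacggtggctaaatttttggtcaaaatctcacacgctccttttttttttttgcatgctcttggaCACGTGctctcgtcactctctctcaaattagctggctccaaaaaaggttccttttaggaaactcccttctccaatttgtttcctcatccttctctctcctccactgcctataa
HAI1: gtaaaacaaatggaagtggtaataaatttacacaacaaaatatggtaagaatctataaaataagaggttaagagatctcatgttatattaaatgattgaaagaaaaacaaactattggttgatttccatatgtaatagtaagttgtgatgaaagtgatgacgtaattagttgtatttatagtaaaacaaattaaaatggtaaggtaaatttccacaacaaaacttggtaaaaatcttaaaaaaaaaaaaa
HAI2: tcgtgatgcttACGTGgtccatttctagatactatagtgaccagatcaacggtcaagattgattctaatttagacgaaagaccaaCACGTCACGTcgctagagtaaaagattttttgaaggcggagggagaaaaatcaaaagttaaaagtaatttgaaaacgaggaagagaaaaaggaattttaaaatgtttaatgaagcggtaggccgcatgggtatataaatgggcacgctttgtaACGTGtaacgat

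The letters ACGTG occurred in the 250 bases before 5 of the 10 genes, namely CYP707A1, CYP707A3, HAB1, HAI2 and ABF3, and before 22.9% of 27443 annotated genes. Before 56 other genes of the pathway it occurred in 26. HAI2 held 4 matches, and 4.98% of all genes held 2 or more. In CYP707A1 and CYP707A3 the match is the palindrome CACGTG. The same pair shared an unbroken run of 23 bases, tttggtcaaaatctcacacgctc, which begins at −61 in CYP707A1 and at −162 in CYP707A3. The longest shared run in the other 44 pairs of the 10 genes ran from 7 to 15 bases. CCGAC, the core of the C-repeat element bound by CBF factors, occurred in 0 of the 10 stretches on either strand and in 12% of all genes. It occurred before 11 of the 56 other genes of the pathway. These are matches of letters in a window, not measured binding, and whether they go with the changes below was not tested.

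Libraries held 14407060 to 63178347 counts in genes, and counts of the 10 genes in a library ran from 8 (HAI2) to 4838 (ABI1). MBF1C averaged 0.448 to 1.03 CPM (counts scaled by the gene counts of the library) over the groups of mbf1c and 0.884 to 4.20 over those of Col0. JUB1 averaged 0.467 to 1.09 CPM over the groups of jub1 and 1.05 to 8.43 over those of Col0. As a mean of the 4 conditions, MBF1C in mbf1c differed from Col0 by −1.73 ± 0.18 in log2 (edgeR adjusted p = 1.2e-06) and JUB1 in jub1 by −2.29 ± 0.334 (adjusted p = 7.79e-04), although at single conditions MBF1C was called only at Deacc2 and Deacc4 and JUB1 at none. Fold changes below are log2 differences from edgeR after TMM scaling, which corrects for RNA composition, with p-values adjusted over 20679 genes. The ± values are SEs derived from each test, as the absolute log2 change divided by the square root of its F statistic. Without TMM the median change of all genes at ACC against NonA would be higher by 0.427, and a level in CPM therefore shows a larger rise at ACC than the fitted change. The 3 leaf markers summed to 18900 to 50700 CPM in every library, with a median of 43800 at NonA and 23300 at ACC. RBCS1A averaged 36280 CPM at NonA and 23430 at ACC, and PSAD1 4392 and 1093. RCA, the remaining leaf marker, averaged 2581 and 2741 CPM. Summed markers of 4 guard cell genes ran from 17.5 to 52.5 CPM at NonA and from 34.6 to 73 at ACC, and the phloem companion cell marker SUC2 from 46.9 to 95.3 and from 128 to 149. The 3 root markers summed to 38.3 to 116 CPM at NonA and 6.98 to 9.98 at ACC. That sum was almost all PYK10, the only 1 of them with a mean over 1 CPM, at means of 58.8 and 7.79 CPM. CASP1 went the other way, from 0.371 to 0.503 CPM, and IRT1 averaged 0 and 0.00604 CPM. The 4 flower markers never passed 1.72 CPM in sum, and 2 seed markers never passed 0.768. No marker was at 0 in every library, and the part of cell types in the changes below was not tested. Expression also followed transcript length differently by condition. The change in log2 CPM for each doubling of exonic length had a mean of −0.0113 over NonA libraries, 0.62 over ACC, 0.384 over Deacc2 and 0.306 over Deacc4.

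Averaged over the 3 lines, 7 genes were higher at ACC than at NonA. They were the synthesis gene NCED3, the breakdown gene CYP707A1, the phosphatase genes ABI2, HAB1 and HAI2, and the transcription factors ABF3 and HB12. CYP707A3 fell, and ABI1 and HAI1 did not pass the test. Of the 10 genes, 8 were called (edgeR adjusted p under 0.05), 7 higher and 1 lower. Over all genes tested 70.4% were called, 35.1% higher and 35.3% lower, so the share called was near the background. The median log2 change was 1.35 over the 10 genes and −0.00377 over all genes. After 2 warm days 9 of the 10 were called against ACC, with CYP707A3 and HAI1 higher and the other 7 lower, beside 64.8% of all genes, 32.5% higher and 32.3% lower. After 4 warm days 8 were called, 1 higher and 7 lower, beside 67.6% of all genes, 33.3% higher and 34.3% lower. The cold and the warm comparisons share the 9 ACC libraries, so opposite signs between them are not independent.

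**Figure D1:**
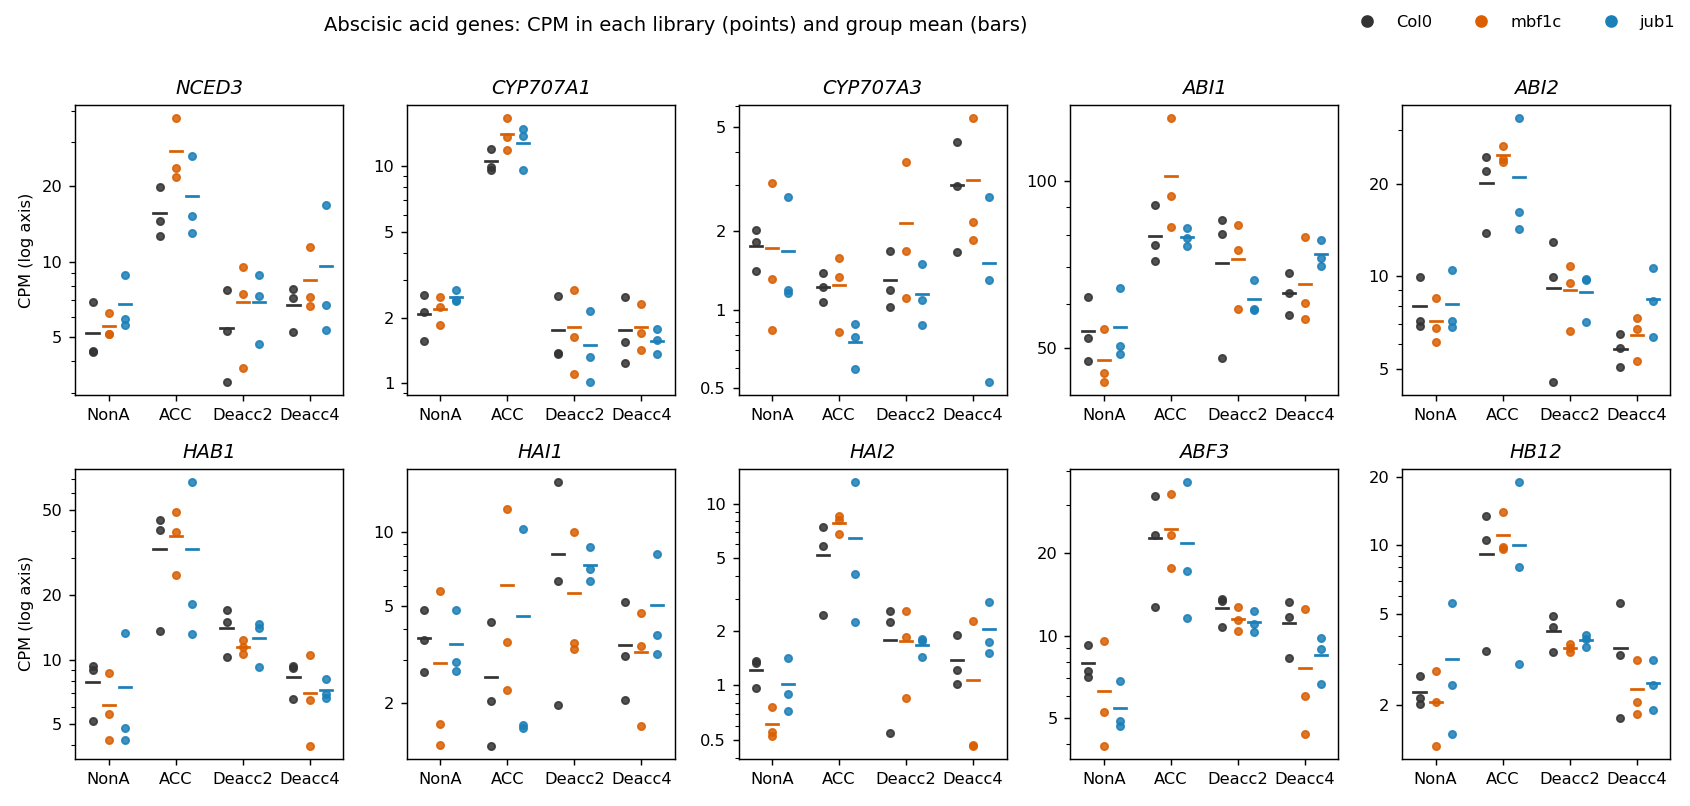
Level of each of the 10 genes in CPM on a log axis (y) at the 4 conditions (x), with 1 point per library, coloured by line, and a bar at the mean of the 3 libraries of a group. CYP707A1 at ACC lies between 9.61 and 16.6 CPM in all 9 libraries, above every library of the other conditions, whereas CYP707A3 and HAI1 overlap between conditions.

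**Figure D2:**
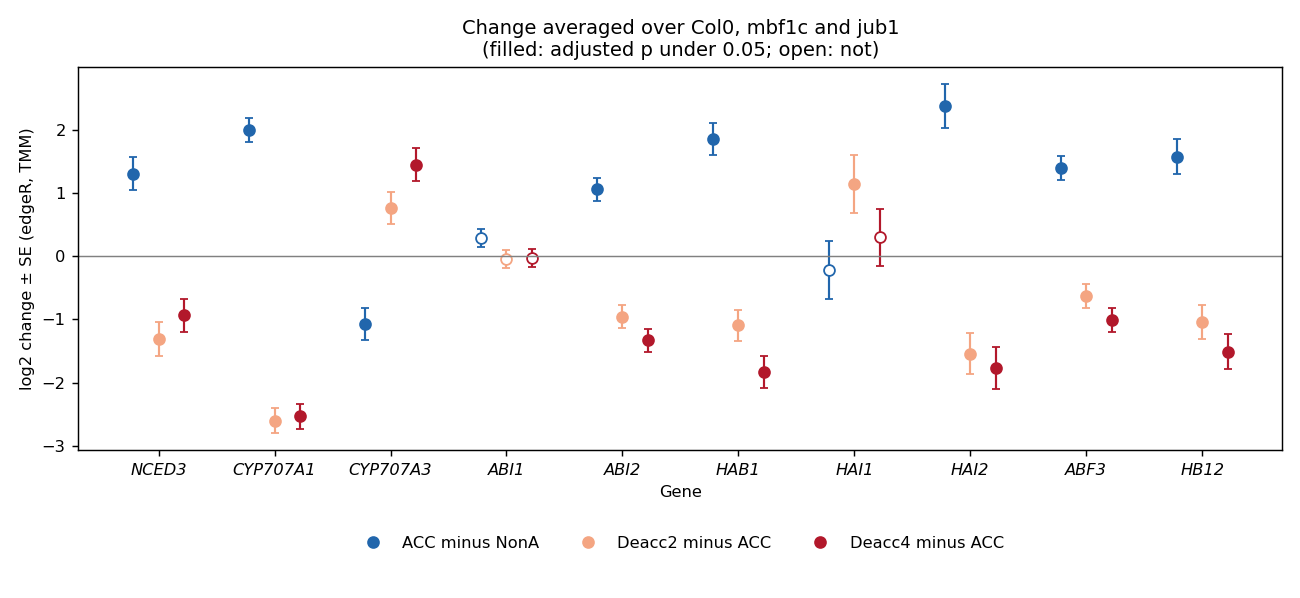
Log2 change ± SE of the 10 genes (x) averaged over the lines, for ACC against NonA and for both deacclimation times against ACC. Filled points have an adjusted p under 0.05; CYP707A3 is the only gene of the 10 with a called fall in the cold and a called rise at both later times.

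NCED3, the rate-limiting gene of synthesis, was higher in the cold in each line. In Col0 its 3 NonA libraries held 4.36, 6.88 and 4.4 CPM and its 3 ACC libraries 19.8, 14.5 and 12.7 CPM. The mbf1c libraries held 5.13, 6.25 and 5.16 CPM at NonA and 21.7, 23.7 and 37.3 CPM at ACC, and the jub1 libraries 5.89, 5.59 and 8.83 CPM and 15.3, 26.5 and 13 CPM. All 9 ACC libraries lay above all 9 NonA libraries, and the highest value was in mbf1c. The change averaged over the lines was 1.30 ± 0.264 (adjusted p = 9.16e-05). With a correction for the length trend it was 0.71 and no longer called (adjusted p = 0.0523), and with that correction plus a replicate block it was 0.75 (adjusted p = 0.013). At Deacc2 the 9 libraries ran from 3.31 to 9.55 CPM with a median of 7.27, all below the ACC libraries, a change of −1.31 ± 0.262 against ACC (adjusted p = 8.16e-05). At Deacc4 they ran from 5.22 to 16.8 CPM with a median of 7.19, and the highest, jub1 replicate 3, overlapped with ACC. The fall from ACC to Deacc4 was −0.93 ± 0.260 (adjusted p = 0.00247), and −0.60 with the length correction (adjusted p = 0.0906).

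CYP707A1 and CYP707A3 encode hydroxylases that inactivate the hormone, and their transcripts moved in opposite directions. The proteins share 82.1% of aligned residues, and their transcripts, at 82.9% identity over 1309 bases, are not near-identical. At NonA the CYP707A1 level was 2.13, 2.55 and 1.57 CPM in Col0, 1.86, 2.50 and 2.25 in mbf1c, and 2.43, 2.39 and 2.69 in jub1. At ACC it was 12.1, 9.96 and 9.64 CPM in Col0, 13.7, 11.9 and 16.6 in mbf1c, and 9.61, 14.9 and 13.8 in jub1. No library of one condition reached the range of the other. The change was 2.00 ± 0.193 (adjusted p = 8.94e-10), followed by −2.60 ± 0.195 from ACC to Deacc2 (adjusted p = 5.21e-12) and −2.53 ± 0.196 from ACC to Deacc4 (adjusted p = 1.04e-11). Each of these 3 changes kept its call in each alternative setting run for it and in the 18 fits that left out 1 library.

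CYP707A3 was among the lowest of the 10 genes, at 9 to 202 counts per library. Its 9 libraries ran from 0.833 to 3.04 CPM at NonA (median 1.41), from 0.591 to 1.58 at ACC (median 1.07) and from 0.528 to 5.38 at Deacc4 (median 2.17). The ranges overlapped, and within lines the ACC libraries lay below all NonA libraries in Col0 and jub1 but not in mbf1c. The fitted change was −1.07 ± 0.259 at ACC against NonA (adjusted p = 6.15e-04), and −0.70 with library totals in place of TMM (adjusted p = 0.0444). It rose by 0.76 ± 0.256 from ACC to Deacc2 (adjusted p = 0.0106), a call lost with library totals (0.49, adjusted p = 0.165). From ACC to Deacc4 it rose by 1.44 ± 0.258 (adjusted p = 1.76e-05). A ratio of counts within a library needs no scaling between libraries. CYP707A1 over CYP707A3 ran from 0.612 to 3 at NonA with a median of 1.72, and from 7 to 23.3 at ACC with a median of 10.6. At Deacc2 the ratio ran from 0.738 to 2.47 with a median of 1, and at Deacc4 from 0.317 to 3 with a median of 0.75. Every ACC library exceeded every library of the other 3 conditions in this ratio, for which no test was made.

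**Figure D3:**
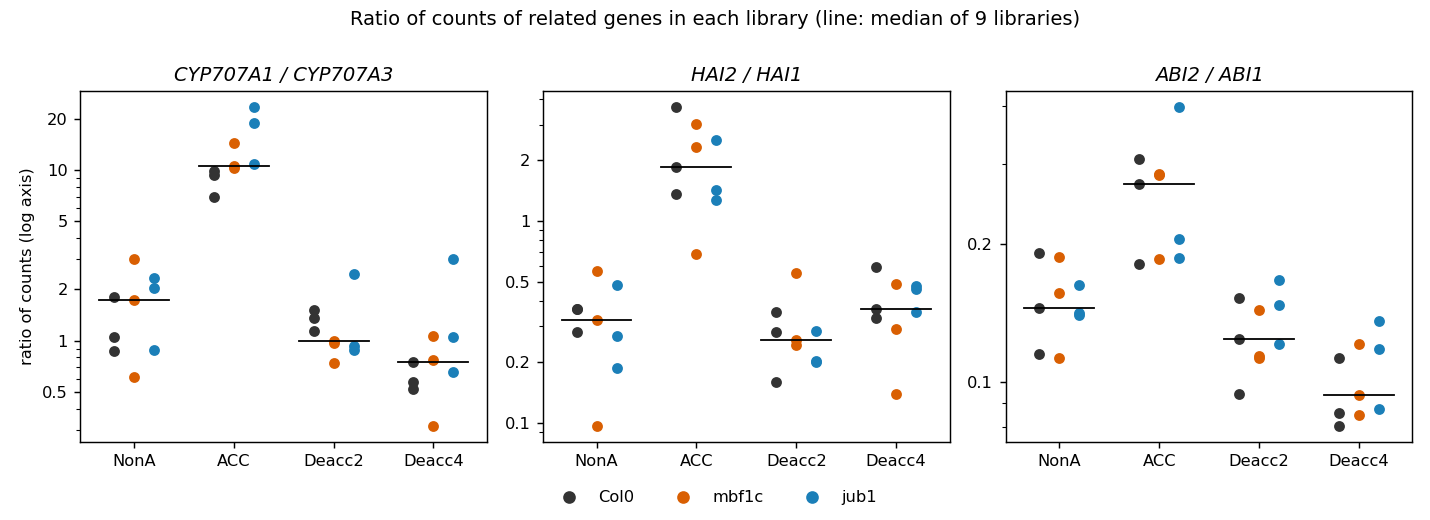
Ratio of the counts of related genes in each library on a log axis (y), by condition (x), with points coloured by line and a line at the median of 9 libraries. For CYP707A1 over CYP707A3 all ACC points lie at 7 or higher and all others at 3 or lower; for HAI2 over HAI1 the ACC median is 1.85 and the other medians lie between 0.256 and 0.366.

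Of the 5 phosphatases, ABI2, HAB1 and HAI2 rose in the cold, and ABI1 and HAI1 were not called. All 5 belong to clade A, whose members hold SnRK2 kinases inactive in the absence of the hormone. ABI1 and ABI2 are the closest pair, with 80% of aligned residues identical, and HAI1 and HAI2 share 63.6%. The other pairs of the 5 share 40% to 53.8%.

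ABI1 was the most abundant of the 10 genes. Its libraries ran from 43.3 to 64.2 CPM at NonA (median 50.4), from 71.7 to 130.1 at ACC (median 82.3), from 47.9 to 85.0 at Deacc2 (median 66.4) and from 56.3 to 79.3 at Deacc4 (median 68.3). In CPM all 9 ACC libraries lay above all 9 NonA libraries, yet after TMM scaling the change was 0.29 ± 0.143 and not called (adjusted p = 0.0674). With library totals alone it was 0.74 (adjusted p = 4.97e-06), beside a shift of 0.427 in the median of all genes. The call also appeared without a filter (0.35, adjusted p = 0.0372) and with the first strand column (0.34, adjusted p = 0.0326). Leaving out 1 of 10 libraries also gave it: Col0 NonA replicate 2, Col0 ACC replicate 2, mbf1c NonA replicates 2 and 3, mbf1c ACC replicates 1 and 2, jub1 NonA replicates 1 and 3, or jub1 ACC replicates 1 and 2. Over these fits the change was 0.33 to 0.41 with adjusted p from 0.0106 to 0.0468. From ACC to Deacc2 and Deacc4 the fitted changes were −0.05 ± 0.142 and −0.04 ± 0.142, neither called (adjusted p = 0.756 and 0.825), and with library totals they were −0.34 and −0.36 (adjusted p = 0.013 and 0.00848).

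ABI2 ran from 6.11 to 10.5 CPM at NonA (median 7.13) and from 13.9 to 32.8 at ACC (median 23.6). It ran from 4.52 to 13 CPM at Deacc2 (median 9.76) and from 5.05 to 10.7 at Deacc4 (median 6.48). The ACC libraries overlapped with none of the others. The change was 1.06 ± 0.181 in the cold (adjusted p = 9.81e-06), −0.96 ± 0.179 from ACC to Deacc2 (adjusted p = 3.51e-05) and −1.33 ± 0.181 from ACC to Deacc4 (adjusted p = 3.09e-07). Counts of ABI2 were 0.113 to 0.191 of those of ABI1 at NonA, 0.181 to 0.398 at ACC and 0.0805 to 0.136 at Deacc4.

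HAB1 spread widely at ACC. At NonA it was at 8.99, 9.38 and 5.21 CPM in Col0, 8.71, 5.62 and 4.22 in mbf1c, and 4.83, 13.3 and 4.25 in jub1. At ACC it was at 45, 40.3 and 13.6 CPM in Col0, 39.7, 48.8 and 24.8 in mbf1c, and 18.2, 67.5 and 13.2 in jub1. Replicate 2 of jub1 was the highest library at both conditions, and 8 of the 9 ACC libraries lay above all NonA libraries. The change was 1.85 ± 0.252 (adjusted p = 3.62e-07), and 1.58 without jub1 ACC replicate 2 (adjusted p = 4.29e-07). The change from ACC was −1.09 ± 0.245 at Deacc2 (adjusted p = 3.13e-04) and −1.83 ± 0.251 at Deacc4 (adjusted p = 3.34e-07), and at Deacc4 no library reached the ACC range.

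HAI2, which with HAI1 belongs to the highly abscisic acid-induced phosphatases, had the largest fitted cold change of the 10 genes and was low before it. Its libraries ran from 0.527 to 1.42 CPM at NonA (median 0.897), from 2.23 to 13.2 at ACC (median 6.81), from 0.551 to 2.57 at Deacc2 (median 1.80) and from 0.466 to 2.88 at Deacc4 (median 1.51). All ACC libraries exceeded all NonA libraries, and the lowest ACC libraries overlapped with the later times. The change was 2.37 ± 0.346 (adjusted p = 9.77e-07), followed by −1.54 ± 0.325 (adjusted p = 1.52e-04) and −1.77 ± 0.330 (adjusted p = 3.19e-05) from ACC to Deacc2 and Deacc4.

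HAI1 differed from library to library more than between conditions in the cold comparison. At NonA it was at 3.62, 4.80 and 2.66 CPM in Col0, 1.34, 5.76 and 1.64 in mbf1c, and 2.69, 2.95 and 4.82 in jub1. At ACC it was at 2.03, 4.30 and 1.33 CPM in Col0, 2.24, 12.5 and 3.53 in mbf1c, and 1.62, 10.4 and 1.58 in jub1. The replicate 2 library was the highest of each line at ACC. The change was −0.22 ± 0.457 (adjusted p = 0.671), and −0.63 without jub1 ACC replicate 2 (adjusted p = 0.214). At Deacc2 the libraries ran from 1.96 to 16.1 CPM (median 6.34), a rise of 1.14 ± 0.452 over ACC (adjusted p = 0.0291). That call was lost with library totals (0.76, adjusted p = 0.118). It was also lost when any 1 of 9 libraries was left out, namely replicates 1 and 3 of each line at ACC, or replicate 3 of each line at Deacc2, with adjusted p from 0.0528 to 0.126. HAI2 over HAI1 in counts ran from 0.0964 to 0.567 at NonA, from 0.686 to 3.66 at ACC, from 0.16 to 0.554 at Deacc2 and from 0.138 to 0.591 at Deacc4, so the ACC libraries lay above all others in this ratio.

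ABF3, a bZIP factor that binds abscisic acid response elements, ran from 3.96 to 9.53 CPM at NonA (median 6.81) and from 11.6 to 36.5 at ACC (median 23.3). At Deacc2 it lay between 10.3 and 13.7 CPM (median 11.4) and at Deacc4 between 4.37 and 13.3 (median 8.98). The ACC and Deacc2 libraries all lay above the NonA libraries. The change was 1.39 ± 0.195 in the cold (adjusted p = 5.53e-07), −0.63 ± 0.191 from ACC to Deacc2 (adjusted p = 0.00533) and −1.01 ± 0.193 from ACC to Deacc4 (adjusted p = 4.39e-05).

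HB12, a homeodomain-leucine zipper factor induced by the hormone and by drought, ran from 1.32 to 5.59 CPM at NonA (median 2.14) and from 3.02 to 19 at ACC (median 9.81). It ran from 3.40 to 4.88 CPM at Deacc2 (median 3.67) and from 1.75 to 5.59 at Deacc4 (median 2.45). At ACC, Col0 replicate 3 (3.45 CPM) and jub1 replicate 3 (3.02 CPM) lay within the NonA range, and the other 7 libraries above it. The change was 1.57 ± 0.279 (adjusted p = 1.73e-05), −1.04 ± 0.272 from ACC to Deacc2 (adjusted p = 0.00145) and −1.51 ± 0.277 from ACC to Deacc4 (adjusted p = 2.52e-05).

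Against NonA, 3 genes were called at Deacc2 (40.7% of all genes were called): ABF3 was higher by 0.76 ± 0.194 (adjusted p = 0.00309), HAB1 was higher by 0.75 ± 0.247 (adjusted p = 0.0168) and CYP707A1 was lower, at −0.60 ± 0.192 (adjusted p = 0.0143). HAB1 was no longer called with the length correction (0.46, adjusted p = 0.129). CYP707A1 was no longer called with library totals (−0.41, adjusted p = 0.0968), with the first strand column (−0.42, adjusted p = 0.104) or without jub1 NonA replicate 3 (−0.49, adjusted p = 0.05). The count was 5 without mbf1c NonA replicate 2, when ABI1 (0.37, adjusted p = 0.0377) and HAI1 (1.33, adjusted p = 0.0237) were also called. HAI2 stood at 0.83 ± 0.341 (adjusted p = 0.0524) and was called by DESeq2 (adjusted p = 0.0345), with no filter (adjusted p = 0.0435) and with library totals (adjusted p = 0.04). It was also called without Col0 Deacc2 replicate 2, mbf1c Deacc2 replicate 1 or 2, or jub1 Deacc2 replicate 1 (0.89 to 0.97). HB12 stood at 0.53 ± 0.277 (adjusted p = 0.125) and was called with the length correction (0.91, adjusted p = 0.0162).

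At Deacc4 CYP707A1 alone was called against NonA, at −0.53 ± 0.194 (adjusted p = 0.0292), beside 40.3% of all genes. The call was lost with no filter, with the first strand column and with library totals. It was also lost when any 1 of 11 libraries was left out, with adjusted p from 0.0559 to 0.102: Col0 NonA replicate 2, Col0 Deacc4 replicates 2 and 3, mbf1c NonA replicates 2 and 3, mbf1c Deacc4 replicates 1 and 3, jub1 NonA replicates 1 and 3, or jub1 Deacc4 replicates 1 and 2. ABF3 was called without Col0 Deacc4 replicate 1, mbf1c NonA replicate 1 or mbf1c Deacc4 replicate 1 (0.49 to 0.51). ABI1 was called without mbf1c NonA replicate 2 (0.40, adjusted p = 0.0236) or mbf1c Deacc4 replicate 1 (0.37, adjusted p = 0.0349), and with library totals at both times. Between Deacc4 and Deacc2, edgeR and DESeq2 each called 0 of the 10 genes, 3 had an unadjusted p under 0.05, and edgeR called 0.0435% of all genes.

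Within single lines the cold comparison called 7 of the 10 genes in each line, beside 41.5% of all genes in Col0, 46.9% in mbf1c and 45% in jub1. CYP707A1, ABI2, HAB1, HAI2, ABF3 and HB12 were higher in each. NCED3 was called in Col0 (1.2 ± 0.459) and mbf1c (1.81 ± 0.464) but not in jub1 (0.89 ± 0.450, adjusted p = 0.105), and CYP707A3 was called in jub1 (−1.51 ± 0.456, adjusted p = 0.00967) but not in Col0 (adjusted p = 0.125) or mbf1c (adjusted p = 0.106). The differences between lines in these responses were tested and not called, as given below. With the length correction NCED3 was no longer called in the cold in Col0 (0.66, adjusted p = 0.355) or mbf1c (1.17, adjusted p = 0.0899). ABI2 was then no longer called in Col0 (0.70, adjusted p = 0.117) or jub1 (0.63, adjusted p = 0.145). The CYP707A3 call in jub1 was lost with library totals (−1.10, adjusted p = 0.0981) and without ACC replicate 2 (−1.40, adjusted p = 0.0525). In Col0 CYP707A3 was called lower with only the compared groups (−0.84, adjusted p = 0.0353). The Col0 count was 2 without ACC replicate 1 and 4 without NonA replicate 3, and the jub1 count was 2 without ACC replicate 2. From ACC to Deacc2, 4 genes were called in Col0, 6 in mbf1c and 3 in jub1, beside 41.4%, 40.9% and 38.2% of all genes. The Col0 count was 1 without ACC replicate 1 or Deacc2 replicate 1 and 2 without Deacc2 replicate 2, and the jub1 count 1 without Deacc2 replicate 1 or 2 and 5 without ACC replicate 3. From ACC to Deacc4, 5, 8 and 6 genes were called, beside 44.9%, 42.7% and 43% of all genes, and the jub1 count was 1 without ACC replicate 2. Against NonA, edgeR called 0 of the 10 within each line at either time, beside 0.00484%, 0.058% and 6.05% of all genes at Deacc2 and 6.11%, 2.63% and 0.595% at Deacc4.

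The titles of the libraries number the replicates as experiments, and with that number as a block 7 calls within lines were added and none was lost. NCED3 was then called in jub1 in the cold (1.00, adjusted p = 0.0294) and from ACC to Deacc2 (−1.16, adjusted p = 0.0145), and in Col0 from ACC to Deacc4 (−0.98, adjusted p = 0.0311). The blocked fit also called ABI1 in mbf1c in the cold (0.57, adjusted p = 0.0422) and HB12 in Col0 from ACC to Deacc4 (−1.17, adjusted p = 0.0329). HAI2 was called with the block in Col0 from ACC to Deacc2 (−1.35, adjusted p = 0.0445) and in jub1 from ACC to Deacc4 (−1.39, adjusted p = 0.0408).

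MBF1C is a transcriptional coactivator of heat and other stress responses and JUB1 a NAC factor of stress and ageing, and whether the lines differ from Col0 in these genes was asked at each condition. None of the 10 genes was called by edgeR or DESeq2 in any of the 16 comparisons with Col0. A fit with a separate replicate block in each condition also called none of the 10 genes in these comparisons. At single conditions edgeR called 0% to 0.0193% of all genes, averaged over conditions 0.029% in mbf1c and 0.0339% in jub1, and for the differences of response 0%. The mean was above that of Col0 at all 4 conditions for NCED3 in both lines and for CYP707A1 in mbf1c, and below it at all 4 for CYP707A3 and ABF3 in jub1. Averaged over the conditions NCED3 differed by 0.50 ± 0.226 in mbf1c (unadjusted p = 0.0341 in edgeR's test, adjusted p = 0.619) and by 0.51 ± 0.225 in jub1 (unadjusted p = 0.0317, adjusted p = 0.514). At Deacc4 in jub1, ABI2 stood at 0.71 ± 0.313 and CYP707A3 at −0.94 ± 0.438 against Col0, both with an adjusted p of 0.909. At all other single conditions, and for all differences of response, no gene of the 10 had an unadjusted p under 0.05. In 75 of 80 comparisons of a mutant group with Col0 the 3 and 3 libraries overlapped in CPM, so 5 of 80 did not, beside 6.24% when every gene tested was counted over the same 8 comparisons, and nothing is read from that share. The 5 were NCED3 higher in mbf1c at ACC, HAI2 lower in mbf1c at NonA, CYP707A3 lower in jub1 at ACC, ABF3 lower in jub1 at NonA and ABI1 higher in jub1 at Deacc4. With 3 libraries a group, SEs at a single condition ran up to 0.809 (HAI1).

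**Figure D4:**
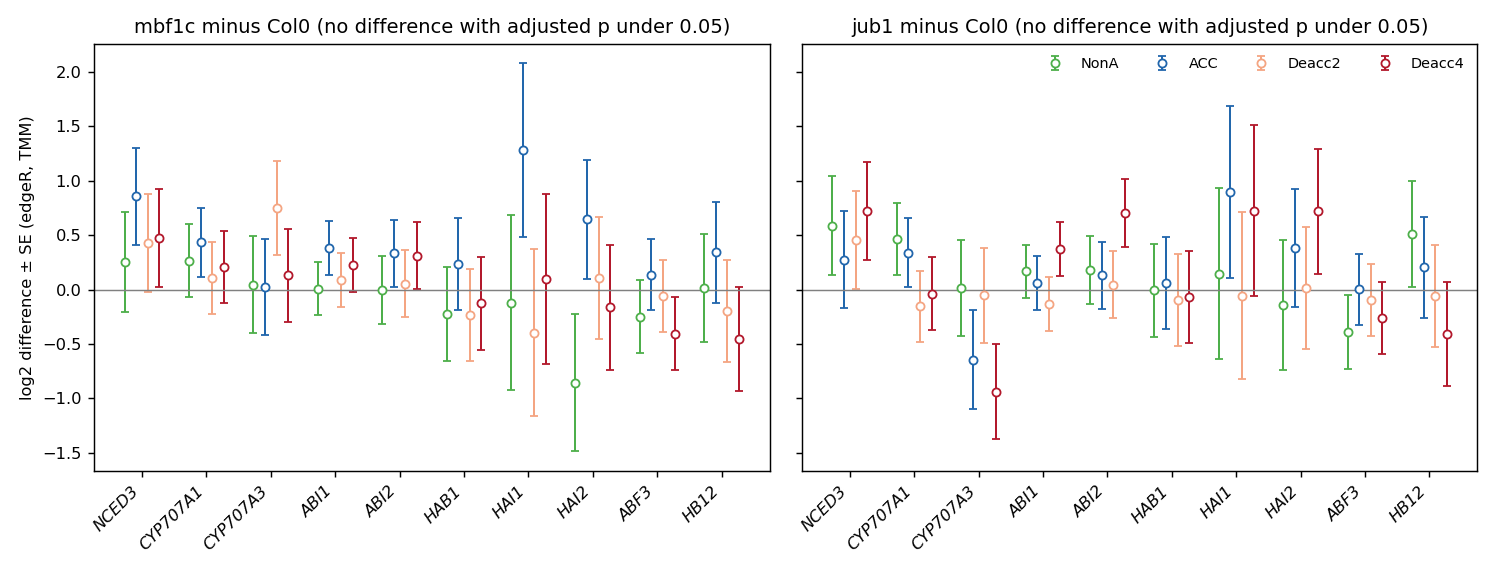
Log2 difference ± SE of mbf1c (left) and jub1 (right) from Col0 for the 10 genes (x) at the 4 conditions (colours). No point has an adjusted p under 0.05, and HAI1 and HAI2 have the longest error bars.

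Per kilobase of exon, ABI1 averaged 31.6 CPM over the 36 libraries. HAB1 (5.55), ABF3 (5.17), ABI2 (5.001), HB12 (4.57) and NCED3 (3.76) followed in CPM per kilobase, then HAI1 (2.24), CYP707A1 (2.14), HAI2 (1.41) and CYP707A3 (0.841). The libraries of each gene overlapped with those of its neighbour in this order, ABI1 included, whose lowest library stood at 20 and the highest of HAB1 at 24.2 CPM per kilobase. Across the 36 libraries, which share conditions and the length trend, HAB1 was most like ABF3 (Pearson r = 0.887 of log2 CPM, a description without a test) and HB12 (r = 0.875). ABI2 was most like HAI2 (r = 0.854). CYP707A3 had a negative r with CYP707A1 (−0.529) and with ABI2 (−0.695).

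Among 13477 other genes (mean level 5 CPM or more), HB7, the closest relative of HB12, was among the 2 most like ABF3 (r = 0.905) and HB12 (r = 0.885). PUB19, a U-box ubiquitin ligase, was among the 2 most like HAI2 (r = 0.909) and ABI2 (r = 0.90), beside PAP1, an anthocyanin MYB factor, for ABI2 (r = 0.904). AFP3, of a family that binds ABI5, was nearest to HAI1 (r = 0.816), followed by RHL41, a zinc-finger factor (r = 0.723). ECT8, an m6A reader, was nearest to HAB1 (r = 0.941) and TPS5, of the trehalose-6-phosphate synthase family, to ABF3 (r = 0.906). CIPK7, a calcineurin B-like interacting kinase, reached r = 0.761 with ABI1 and sks3 r = 0.793 with CYP707A3. Genes without a symbol in the annotation made up the rest. AT5G17460 (r = 0.901) and AT1G70640 (r = 0.892) were nearest to NCED3, and AT3G01820 (r = 0.953) and AT4G35910 (r = 0.949) to CYP707A1. AT1G76240 stood first for CYP707A3 (r = 0.812), AT1G76590 for ABI1 (r = 0.802) and AT2G41190 for HB12 (r = 0.897). AT1G05170 was second for HAB1 (r = 0.921) and AT1G78070 for HAI2 (r = 0.901).

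Of 56 other genes of the pathway, 44 passed the filter, and in the cold 17 rose and 15 fell averaged over the lines. Their median log2 change was 0.163, beside −0.00377 over all genes, and the share called was near the 70.4% of all genes. Among the receptors, 8 of 10 tested fell and 0 rose, beside 35.3% and 35.1% of all genes, with PYR1 at −1.71 ± 0.185 (adjusted p = 6.78e-09), PYL7 (uncertain, as given below) at −1.67 ± 0.205 and PYL8 at −2.10 ± 0.261. From ACC to Deacc2, 8 of the 10 receptors rose and 1 fell, beside 32.5% and 32.3% of all genes, and from ACC to Deacc4 again 8 and 1, beside 33.3% and 34.3%. With the length correction, or with library totals, 7 receptors fell in the cold and 1 rose. Of the 3 SnRK2 kinases of the core pathway, SNRK2.2 (−1.35 ± 0.130) and SNRK2.3 (−1.64 ± 0.165) fell, and SNRK2.6, the guard cell kinase also called OST1, rose (1.52 ± 0.165, adjusted p = 7.78e-09). The summed guard cell markers given above were higher at ACC too, with a median of 50.3 CPM against 22.9 at NonA, and their part in the rise of SNRK2.6 was not tested.

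**Figure D5:**
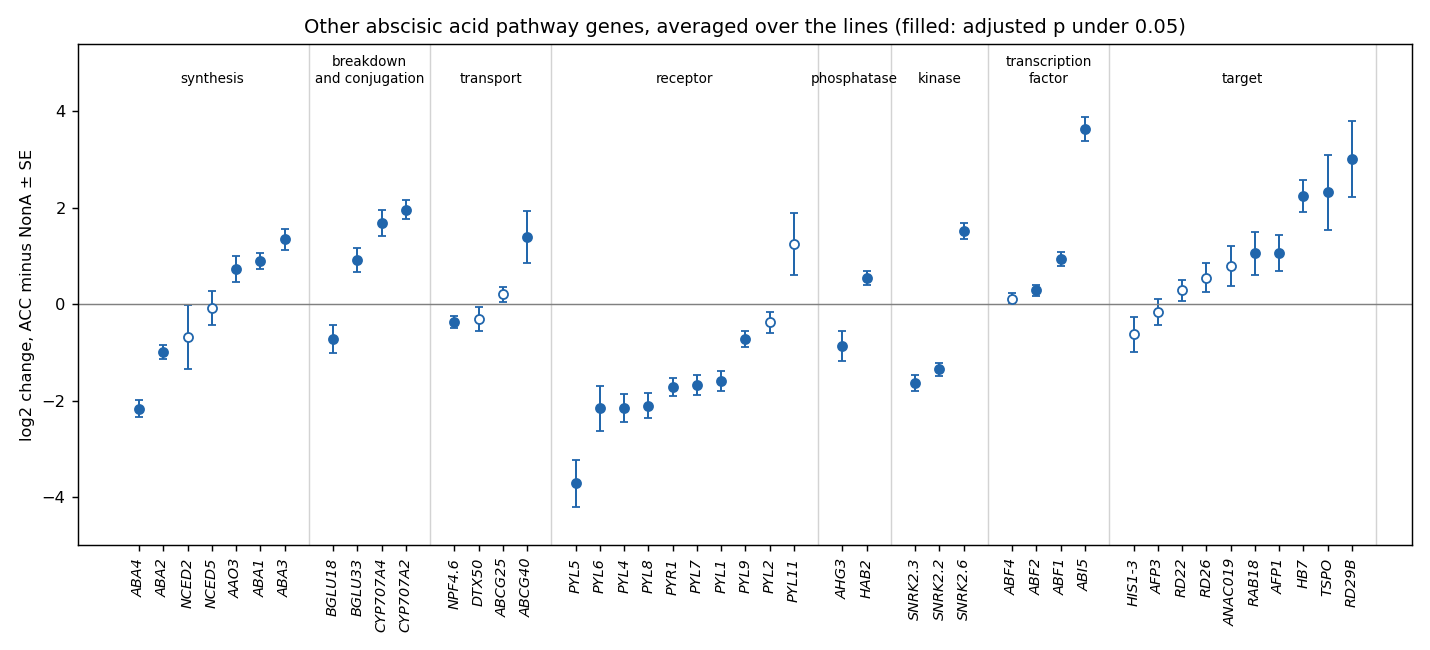
Log2 change ± SE at ACC against NonA, averaged over the lines, of the 44 other pathway genes tested (x), grouped by role and sorted within a role. Filled points have an adjusted p under 0.05; 8 of 10 receptor genes lie below 0 and are filled, and ABI5 has the highest value at 3.63.

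The counts by role that follow stand beside 35.1% of all genes higher and 35.3% lower in the same comparison, and with 2 to 10 genes a role they are descriptions. In synthesis, 3 of 7 tested genes rose and 2 fell, a share called near the background. ABA4 fell by 2.17 ± 0.177 and ABA2 fell by 0.996 ± 0.147, and ABA3, a sulfurase that activates the molybdenum cofactor of the last oxidase, rose by 1.35 ± 0.218. With the length correction 2 rose and 3 fell, since AAO3, that oxidase, changed sign from 0.73 to −0.68. AAO3 was not called without jub1 ACC replicate 2 (0.63, adjusted p = 0.0515). The transcripts of ABA2, AAO3 and PYL7 share 349, 358 and 571 bases, at 98.6% to 100% identity, with a gene annotated on the opposite strand. Opposite genes cover 39.7%, 13.8% and 49.7% of their exonic bases. Counting without strand cannot tell these genes apart, so the changes of ABA2, AAO3 and PYL7 are uncertain. In the list of breakdown and conjugation 3 of 4 rose and 1 fell. CYP707A2 (1.96 ± 0.197, adjusted p = 2.02e-09) and CYP707A4 (1.69 ± 0.274, adjusted p = 4.93e-06), the remaining CYP707A genes, rose. BGLU33 and BGLU18 encode glucosidases that release the hormone from its glucose ester, the reverse of conjugation. BGLU33 rose (0.92 ± 0.249) and BGLU18 fell (−0.72 ± 0.284, adjusted p = 0.0257), a call that was lost without any 1 of 9 libraries, with adjusted p from 0.0528 to 0.118. They were Col0 NonA replicates 1 and 2, Col0 ACC replicates 1 and 3, mbf1c NonA replicate 1, mbf1c ACC replicate 3, jub1 NonA replicate 3, and jub1 ACC replicates 1 and 3. With library totals 0 of the 4 genes in this list were called lower, so the BGLU18 call was lost there too. CYP707A3 was the only 1 of 4 CYP707A genes that fell. Of the 2 other phosphatases tested, HAB2 rose by 0.55 ± 0.146 and AHG3 fell by 0.87 ± 0.310, but the length correction left HAB2 at 0.04 (adjusted p = 0.748) and library totals left AHG3 at −0.38 (adjusted p = 0.192). Without mbf1c NonA replicate 2, AHG3 stood at −0.69 (adjusted p = 0.0503). Of 4 transporters NPF4.6 fell by 0.36 ± 0.125 and ABCG40, an importer of the hormone, rose by 1.39 ± 0.536. NPF4.6 was not called with no filter (−0.32, adjusted p = 0.0513) and changed sign with library totals (0.04, adjusted p = 0.824). It was also not called without Col0 ACC replicate 2, mbf1c NonA replicate 1 or jub1 NonA replicate 1, with adjusted p from 0.0528 to 0.0884. The ABCG40 call was lost with the length correction (0.07, adjusted p = 0.91), without mbf1c ACC replicate 2 (0.98, adjusted p = 0.0974) and without jub1 ACC replicate 2 (1.2, adjusted p = 0.0564). Of 4 transcription factors tested 3 rose, ABI5 by 3.63 ± 0.243 (adjusted p = 9.61e-13), ABF1 by 0.95 ± 0.146 and ABF2 by 0.29 ± 0.112, though ABF2 changed sign under the length correction (−0.18, adjusted p = 0.128). Without jub1 ACC replicate 2, ABF2 stood at 0.24 (adjusted p = 0.0516). Of 10 targets tested 5 rose and 0 fell, with HB7 at 2.24 ± 0.341 (adjusted p = 1.83e-06), the dehydration-responsive RD29B at 3.01 ± 0.792 and the membrane protein gene TSPO at 2.32 ± 0.786. Without jub1 ACC replicate 2 the targets called numbered 2, RD29B stood at 1.90 (adjusted p = 0.0233) and TSPO at 1.39 (adjusted p = 0.104). With library totals 8 targets were called. None of the 44 genes was called by edgeR in any of the 16 comparisons of a mutant with Col0.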

How the data were processed

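The 36 libraries hold total RNA of whole rosettes, read with the BGISEQ-500 workflow, per the labels' protocols. Each library has a table of deposited raw gene counts, with the unstranded column used here and another for each strand. The submitters' processing notes name STAR 2.6.0c, the build TAIR10 and DESeq2. The annotation release and the counting settings are not given in the sources used here. Rows naming no gene held 7.04% to 12.8% of reads and stayed out of library sizes and tests. Gene names, exonic lengths and upstream stretches came from the RefSeq annotation of TAIR10.1; the count tables hold no coordinates.

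Genes were kept by filterByExpr by group (20679 of 34262) and fitted with edgeR 4.0.16 (R 4.3.3, quasi-likelihood, TMM, 1 coefficient per group, all 36 libraries). For each of 37 contrasts, p-values were adjusted by Benjamini-Hochberg over all genes, with calls at 0.05. Levels are CPM over gene rows, and Pearson r used log2 CPM after TMM with a prior count of 2. The scripts were tested on simulated data.

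The 10 genes and the lists were chosen with earlier results of these data known. All 10 genes are named in every kind of comparison; of the other pathway genes, up to 3 called per role with the smallest adjusted p in the cold comparison averaged over the lines, and AAO3 and BGLU18, named after their values were seen. For each of the 10, likeness is given for the 2 other genes with the highest r among those at a mean of 5 CPM or more. None of the 10 had a near-identical transcript (over 95% identity over 200 bases, BLAST 2.17.0). ABA2, AAO3, UGT71B6, PYL7, ABF4 and the guard cell marker SLAC1 had one, each in a gene that overlaps on the opposite strand. Counting without strand cannot tell opposite genes apart, which touches 1.01% of the exonic bases of ABI1 and 0.982% of those of ABF3. Outside the 10 genes the overlap was larger in UGT71B6 (100%), PYL7 (49.7%), SLAC1 (43%), ABA2 (39.7%) and ABF4 (29.1%). It was also larger in MBF1C (25.9%), AAO3 (13.8%) and ABF1 (10.9%), so levels of these genes may include opposite reads. Replicate libraries differed by far more than counting error (chi-square over degrees of freedom at least 16.9 in 36 pairs), so none was treated as a copy.

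Alternatives were RLE scaling, DESeq2 1.42.0, no filter, the first strand column, only the compared groups, a length correction (a loess trend on exonic length, span 0.5, taken out of each library), a replicate block, both together, and each library left out singly. After the data were seen, library totals without TMM and a condition-wise block were also tried. Titles number replicates as experiments, without saying what they share. Deviations from group means correlated over 0.1 in every same-number pair in 8 of 23 contrasts, which were all 4 of mbf1c against Col0 by condition, jub1 against Col0 at Deacc2 only, the cold and the Deacc2 step from ACC within mbf1c, and Deacc4 with NonA within jub1.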

Additional observations from a re-analysis of the deposited data

How the results depend on the processing

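The count of the 10 genes called was above 0 in 14 comparisons, and of 265 counts of these under an alternative 236 stayed within 1.5 times the count given in the report; the other 23 comparisons, at 0, say nothing about stability. Over all values of single genes under the alternatives, 93 gained a call and 122 lost one, and no called change of the 10 genes reversed direction. With the length correction the count in Col0 from ACC to Deacc2 was 2, and with only the compared groups that in mbf1c from ACC to Deacc4 was 5. With library totals the count in Col0 from ACC to Deacc4 was 8 and in jub1 from ACC to Deacc2 it was 6. In jub1 at Deacc2 against NonA it was 1 by DESeq2 and 2 with only the compared groups. Averaged over the lines, the count at Deacc4 against NonA was 0 with no filter and 0 with the first strand column.

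Leaving out single libraries gave 2 to 7 genes in the cold in Col0 and 2 to 7 in jub1. From ACC to Deacc2 it gave 1 to 5 in Col0 and 1 to 5 in jub1, and from ACC to Deacc4 1 to 8 in jub1. Averaged over the lines it gave 2 to 5 at Deacc2 and 0 to 2 at Deacc4 against NonA. With the replicate block the counts for ACC against NonA, Deacc2 against ACC and Deacc4 against ACC were 7, 5 and 7 in Col0, 8, 6 and 8 in mbf1c, and 8, 4 and 7 in jub1. The block changed no call averaged over the lines and none in the comparisons with Col0.

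For all genes, Deacc4 against Deacc2 averaged over the lines gave 9 calls, 15 with library totals, 14 with no filter, 18 with the first strand column, 50 with the length correction, 85 with the replicate block, 129 by DESeq2 and 235 with length correction and block. With library totals the cold comparison averaged over the lines called 9880 genes higher and 4603 lower, against 7250 and 7300 with TMM. Within lines, counts over all genes against NonA ranged with the setting from 0 to 265 (Col0 Deacc2), 695 to 5381 (Col0 Deacc4), 0 to 1221 (mbf1c Deacc2), 0 to 1934 (mbf1c Deacc4), 17 to 5740 (jub1 Deacc2) and 0 to 2000 (jub1 Deacc4). With only the compared groups mbf1c called 4742 genes in the cold and 3472 from ACC to Deacc4. The causes were not tested. The lowest count of a library was 8 for HAI2 and 9 for CYP707A3.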
